A study of Saccharomyces cerevisiae with 32 samples.

Results

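The transcriptome of the evolved yeast strain Y128 was compared between xylose and glucose in cells growing without oxygen, with 2 libraries on each sugar. All genes with a mean of at least 1 RPKM (reads per kilobase of transcript, scaled to the library's total) over these 4 libraries were included, which gave 5803 of the 6328 genes in the deposited table (91.7%). Messenger RNA was measured by RNA-seq in Saccharomyces cerevisiae strains, the engineered parent Y22-3 and its evolved descendants Y127 and Y128, on glucose or xylose with and without oxygen, to ask how Y128 came to grow on xylose when no oxygen is present. Of the series' 32 libraries, 24 are duplicates of 12 combinations of strain, sugar and oxygen, and the other 8 are single cultures on galactose or sorbitol.

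All the groups described here carried the same engineered genes: a bacterial xylose isomerase (CpXylA), a yeast xylulose kinase from another species (PsXyl3), an added copy of the S. cerevisiae transaldolase gene TAL1 and the kanR resistance marker. Y127 and Y128 carried null mutations in ISU1, which encodes an iron-sulfur cluster scaffold, and in HOG1, the kinase of the osmotic stress pathway. Y128 carried further null mutations in GRE3, an aldose reductase, and in IRA2, an inhibitor of Ras. Cells were grown in rich medium (yeast extract and peptone) with 2% of the sugar at 30 °C, for about 3 generations to an optical density near 0.5, in an anaerobic chamber with a stir bar or with shaking in air. Duplicates were grown on different days. Y127 and Y22-3 were described as not growing on xylose without oxygen and were kept in that medium for the same time as Y128. Y128 is 1 evolved strain, so its background, its sugar response and its mutations cannot be told apart here. Reads of the added TAL1 and of the native gene cannot be told apart either.

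Budding yeast prefers glucose. While glucose is present, the sensors Snf3 and Rgt2 and the repressors Mig1 and Mig2 set which hexose transporters are made and hold down genes for other carbon sources, and when glucose runs out the Snf1 kinase lifts that repression and the cell turns towards respiration. Xylose, a pentose from plant biomass, is not a natural carbon source of this species: in strains such as these it enters through hexose transporters, is isomerised to xylulose, phosphorylated, and passes through the pentose phosphate pathway into glycolysis. Without oxygen, sterols, unsaturated fatty acids and haem cannot be made in the usual way, and yeast expresses a set of hypoxic genes that includes the PAU, DAN and TIR cell wall mannoproteins.

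Levels are given as log2 RPKM, the deposited scale, and differences as log2 of xylose over glucose unless a fold is stated. The values are shares of each library's total, so a difference is relative to all other transcripts. The 4 libraries held 12.5 M and 12.5 M reads on glucose and 22.5 M and 24.1 M on xylose (M, 1000000), by the totals recovered from the deposited values. A gene was said to rise or fall when its adjusted p was under 0.05 in limma, fitted to all 24 duplicated libraries with Benjamini-Hochberg adjustment over the 5803 genes, and all adjusted p-values below are from that fit. With 2 libraries against 2, an exact permutation test of a single gene cannot go below 0.333.

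On xylose 713 genes (12.3%) were higher and 1561 (26.9%) were lower, 2274 (39.2%) in all. Among these, 216 rose and 729 fell by at least 2-fold, and 37 rose and 250 fell by at least 4-fold. The differences ran from 5.74 for the hexose transporter gene HXT7 to -7.20 for HXT3. Both xylose libraries lay above both glucose libraries for 1700 genes (29.3%) and below them for 2987 (51.5%). With the genes in 4 classes of level, falls outnumbered rises in all but the highest: 4.2% rose and 29.1% fell up to 9.84 RPKM, 7.58% and 25.7% from there to 20.2 RPKM, 11.7% and 27.9% up to 47.2 RPKM, and 25.7% and 24.9% above that. The median over all genes tested was -0.19. Centring each library on its own median moved every difference up by 0.21 and gave 1534 genes higher and 1329 lower.

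**Figure D1:**
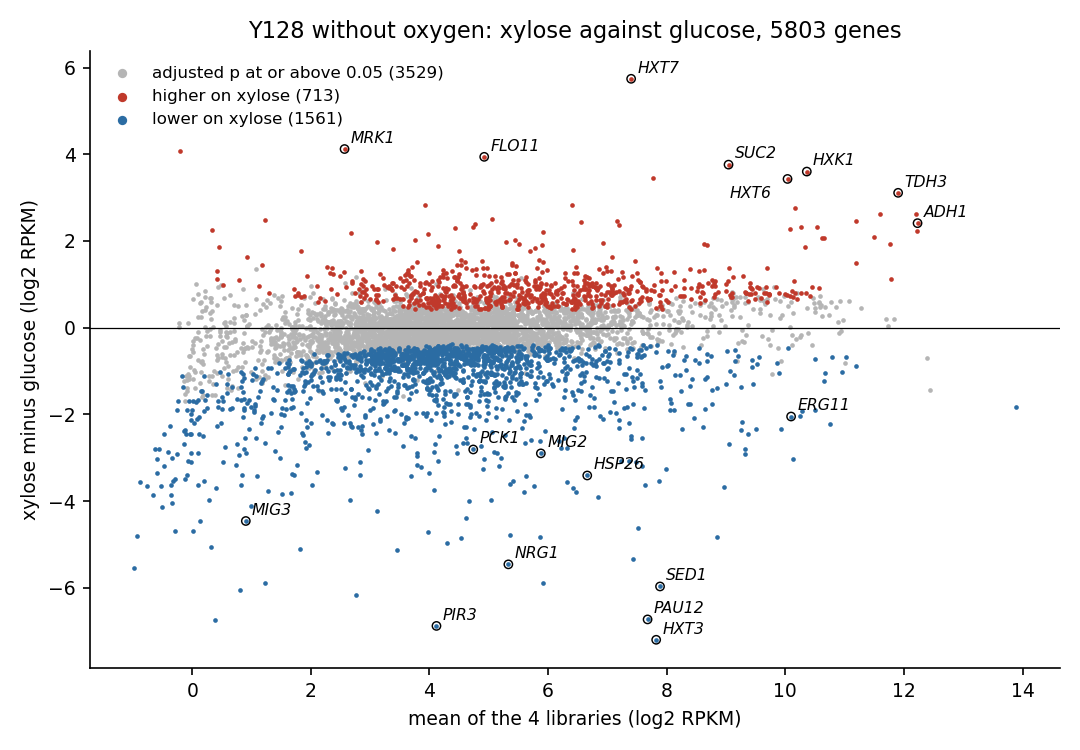
Each point is 1 of the 5803 genes, with its mean level over the 4 libraries (log2 RPKM) on the horizontal axis and its log2 difference, xylose minus glucose, on the vertical axis. Red points rose (713), blue points fell (1561) and grey points did not pass the test. HXT7 lies highest at 5.74 and HXT3 lowest at -7.20, and most of the points past 4-fold are falls.

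The counts depended on single libraries. Leaving out glucose replicate A, glucose replicate B, xylose replicate A or xylose replicate B gave 569, 388, 424 and 385 genes higher and 1038, 1101, 962 and 1080 lower. A total of 312 rises and 836 falls were called whichever of the 4 libraries was left out. The glucose duplicates differed from each other in genes of the ribosome: 122 of 123 cytosolic ribosomal protein genes were higher in glucose replicate A than in replicate B, by a median of 0.46. Markers of mating type a were present (the alpha-factor receptor gene STE2 was at 8.20 and 8.08 on glucose and at 8.29 and 8.25 on xylose), while STE3, the receptor gene of alpha cells, was between 1.07 and 1.76. A mean of at least 10 RPKM was reached by 6 of the 7 a markers listed and by 1 of the 4 alpha markers, which was not STE3.

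The most abundant transcripts changed with the sugar. Of the 20 genes with the highest mean RPKM on each sugar, only 7 were in both sets. On glucose the first 3 were seripauperins, cell wall proteins made without oxygen: PAU17 at 28700 RPKM, PAU2 at 9130 and PAU5 at 6850. All 3 were also among the 20 on xylose, at 8380, 3470 and 4280 RPKM. PAU2 and PAU5 did not pass the test (adjusted p = 0.142 and 0.337). PAU17 fell by 1.83 (adjusted p = 0.00641), a call lost without glucose replicate B or xylose replicate A. On xylose the first 4 were the engineered isomerase CpXylA at 11800 RPKM and the glycolytic and fermentative genes TDH3 at 11300, ADH1 at 11100 and TDH1 at 10400. PAU genes are close copies of each other, and reads shared between copies make their single values uncertain.

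Hexose transporters exchanged places. HXT3, which encodes a low-affinity glucose transporter made in high glucose, was at 11.33 and 11.52 on glucose and at 3.83 and 4.61 on xylose, a difference of -7.20 (SE 0.24, 147-fold lower, adjusted p = 4.64e-14). HXT7, which encodes a high-affinity transporter made when glucose is scarce, was at 4.41 and 4.65 on glucose and at 10.38 and 10.16 on xylose, 53.3-fold higher (5.74, SE 0.27, adjusted p = 8.19e-12). Each pair of libraries sat close together and far from the other pair. HXT6, nearly identical to HXT7 in sequence so that reads may have been shared between them, went from 8.19 and 8.46 to 11.81 and 11.69 (10.7-fold higher, adjusted p = 3.42e-08). HXT4, another transporter induced by low glucose, was at 4.66 and 5.22 on glucose and at 6.54 and 7.15 on xylose, with a difference of 1.91 (SE 0.36, adjusted p = 0.000323). HXT2, a high-affinity transporter gene, was already high on glucose, at 10.21 and 10.23, and lay at 10.76 and 11.12 on xylose, a difference of 0.72 that did not pass (adjusted p = 0.121). Of the 6 transporter genes tested, 4 rose and 1 fell; HXT1, HXT5 and several less expressed members were not analysed here. The galactose permease gene GAL2, which also carries xylose, stayed near the bottom of the range, at -0.43 and -0.52 on glucose and 1.84 and 0.91 on xylose, and its call (adjusted p = 0.044) was lost when any 1 of the 4 libraries was left out.

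**Figure D2:**
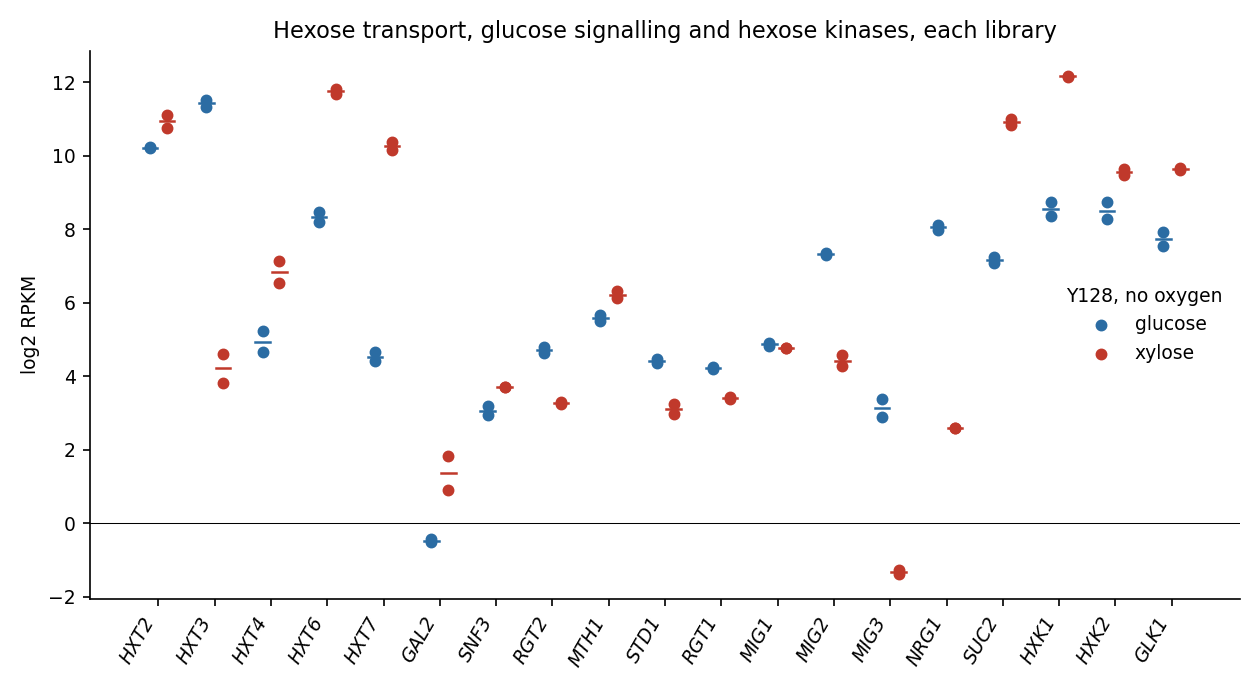
Points are single libraries of Y128 without oxygen, 2 on glucose and 2 on xylose, for 19 genes of sugar transport, sensing and phosphorylation; the axis is log2 RPKM. HXT3 drops from over 11 to under 5 while HXT7, HXK1, SUC2 and HXT6 are higher on xylose, and the repressor genes NRG1, MIG2 and MIG3 are lower.

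Genes of glucose sensing and repression mostly fell. Of 15 tested, 3 rose and 8 fell (median -0.44), and 7 of the falls but none of the rises were called whichever library was left out. NRG1, a repressor of glucose-repressed genes that is not in that list, was at 8.13 and 7.99 on glucose and at 2.60 in each xylose library, 44.0-fold lower (-5.46, SE 0.20, adjusted p = 1e-13). MIG2 fell from 7.31 and 7.35 to 4.27 and 4.58 (adjusted p = 1.22e-10), and MIG3, its close relative, from 3.38 and 2.89 to -1.28 and -1.38 (adjusted p = 8.21e-07). MIG1, the main repressor of the pathway, was at 4.92 and 4.83 on glucose and 4.78 in each xylose library (adjusted p = 0.626). The sensors parted: RGT2, the sensor for high glucose, fell by 1.44 (adjusted p = 1.04e-06), and SNF3, the sensor for low glucose, rose by 0.65 (adjusted p = 0.00559), though not without glucose replicate A. STD1 and MTH1 encode corepressors of the HXT genes. STD1 fell by 1.31 (adjusted p = 3.28e-05), whereas MTH1 was 0.64 higher (adjusted p = 0.0222), a call lost without either glucose library or without xylose replicate B. REG1, which directs the phosphatase that switches Snf1 off, fell by 1.06, and CYC8, a general corepressor, fell by 0.72.

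Targets of glucose repression did not all move alike. SUC2, which encodes invertase and is a textbook glucose-repressed gene, was at 7.07 and 7.26 on glucose and at 10.84 and 11.00 on xylose, 13.5-fold higher (3.76, SE 0.28, adjusted p = 4.51e-09). MAL33, a maltose activator gene, rose by 1.44 (adjusted p = 9.36e-06), and of the 8 maltose and sucrose genes 2 rose and 2 fell. Among 12 genes of the Snf1 pathway 1 rose and 4 fell (33.3%, beside 26.9% of all genes). SNF4, the activating subunit of the kinase, rose by 0.70, while genes for activators of growth on non-fermented carbon were lower or near their glucose level: ADR1 fell from 5.44 and 5.54 to 4.44 in each xylose library, SIP4 fell by 1.91, and CAT8 had a difference of -0.07 (adjusted p = 0.867). The median of the Snf1 list was -0.18, and 0.03 after centring.

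Genes of gluconeogenesis and the glyoxylate cycle, which are also repressed by glucose, showed more falls than rises on xylose without oxygen. Of 12 tested, 1 rose and 5 fell (41.7%, beside 26.9% of all genes), with 2 of those falls called whichever library was left out. After centring 2 rose and 4 fell. PCK1, the first committed step of gluconeogenesis, was at 6.06 and 6.22 on glucose and at 3.29 and 3.38 on xylose, 7.01-fold lower (-2.81, SE 0.21, adjusted p = 3.79e-09). ADY2, an acetate transporter gene, fell by 2.30 (adjusted p = 0.00141), whereas its relative ATO3 rose by 1.76 (adjusted p = 6.78e-06). FBP1, which encodes fructose-1,6-bisphosphatase, was at 0.75 and 2.22 on glucose and 0.80 and 0.66 on xylose, with overlapping groups. Of 19 genes of fatty acid beta-oxidation, 11 fell (57.9%, beside 26.9% of all genes) and 1 rose, and 6 fell after centring. Only 4 of the 11 falls were called whichever library was left out, and 8 of the 19 genes averaged at least 10 RPKM. FOX2 and POT1, enzymes of the peroxisomal cycle, fell by 2.29 and 1.76 and were called whichever library was left out, as were their activators OAF1 and PIP2.

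Some galactose genes rose slightly. Of 8, 3 were called higher (37.5%, beside 12.3% of all genes), with a median of 0.59 and a largest difference of 1.07. Only GAL3, the galactose sensor gene, was called whichever library was left out (2.2 and 2.57 on glucose, 3.60 and 3.31 on xylose). In the single Y128 culture on galactose without oxygen, which is set here beside the same glucose libraries and allows no test, GAL1 lay 9.94 above glucose and GAL2 12.61 above. Relative to glucose, galactose and xylose gave HXK1 3.45 and 3.60, SUC2 3.68 and 3.76, HXT3 -8.55 and -7.20, NRG1 -4.72 and -5.46, PIR3 -6.73 and -6.88, HXT7 4.02 and 5.74, ADH5 1.59 and 2.84, and SED1 -3.86 and -5.97. HXT4 lay on opposite sides of its glucose level, at -2.42 on galactose and 1.91 on xylose.

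Genes that phosphorylate and break down sugars rose together. HXK1, the hexokinase gene that glucose represses, was at 8.37 and 8.75 on glucose and at 12.18 and 12.15 on xylose, 12.2-fold higher (3.60, SE 0.24, adjusted p = 1.04e-09). The glucokinase gene GLK1 rose by 1.91 (adjusted p = 1.75e-05) and its relative EMI2 by 1.25. HXK2, the hexokinase of glucose-grown cells, was at 8.73 and 8.27 on glucose and at 9.65 and 9.49 on xylose (1.07, adjusted p = 0.0178), a call lost without glucose replicate B or either xylose library. Of 12 genes of upper glycolysis 8 rose and 2 fell (median 1.0). The 2 that fell, PFK26 and FBP26, make and break fructose-2,6-bisphosphate, the activator of phosphofructokinase, and they fell by 1.06 and 1.35. PFK1, a phosphofructokinase subunit gene, differed by 0.34 (adjusted p = 0.129).

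In lower glycolysis 9 of 11 genes rose and none fell, with a median of 2.08, and all 9 were called whichever library was left out. The 11 genes together took 2.12% and 2.09% of the reads on glucose and 9.99% and 9.07% on xylose. TDH3, the main glyceraldehyde-3-phosphate dehydrogenase gene, was at 10.51 and 10.18 on glucose and at 13.54 and 13.38 on xylose, 8.62-fold higher (3.11, SE 0.31, adjusted p = 2.14e-07). PGK1, phosphoglycerate kinase, rose by 2.61, ENO2, enolase, by 2.46 and CDC19, the main pyruvate kinase, by 1.12. Neither minor isozyme passed the test, GPM3 with a difference of 0.01 and PYK2 with 0.25. The pairs TDH2 and TDH3 and ENO1 and ENO2 are close in sequence, so how reads were divided within a pair is uncertain.

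For these genes the glucose libraries without oxygen were the low ones. Mean TDH3 levels in Y128 were 14.21 on glucose and 14.60 on xylose with oxygen, 13.46 on xylose without oxygen and 10.35 on glucose without oxygen. In the other strains, glucose without oxygen gave 12.25 for Y22-3 and 11.84 for Y127. Among the 11 lower glycolysis genes, 4 lay more than 1 below both other strains in the Y128 glucose libraries without oxygen, against 3.55% of all genes tested. How much of the sugar difference rests on that low glucose level was not tested.

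Fermentation to ethanol showed 4 of 11 genes higher (36.4%, beside 12.3% of all genes) and 3 lower (27.3%, near the 26.9% of all genes). Of these, 3 rises and 1 fall were called whichever library was left out. ADH1, which makes ethanol, was at 11.09 and 10.96 on glucose and at 13.46 and 13.41 on xylose (2.41, SE 0.32, adjusted p = 7.87e-06). ADH5, a further alcohol dehydrogenase gene, rose from 5.01 and 4.95 to 7.98 and 7.66 (2.84, SE 0.16, adjusted p = 9.74e-11). ADH3, the mitochondrial isozyme, rose by 1.07. ADH2, which consumes ethanol and is repressed by glucose, was at 2.80 and 3.09 on glucose and 3.83 and 3.34 on xylose, a difference that did not pass (adjusted p = 0.0939). Pyruvate decarboxylase genes did not follow ADH1: PDC1 differed by 0.45 (adjusted p = 0.172) and PDC5 fell by 0.96. In the acetate branch, ALD4, the mitochondrial aldehyde dehydrogenase gene, rose 5.14-fold (5.88 and 6.14 to 8.39 and 8.36), and ACS2, the acetyl-CoA synthetase of glucose-grown cells, fell by 0.64. Of the glycerol genes 4 of 8 rose and 1 fell. GPP1, glycerol-phosphate phosphatase, rose by 1.27 and GUT1, glycerol kinase, by 1.21, both called whichever library was left out, which GPD1 and GPD2 were not.

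Along the xylose route, CpXylA rose from 11.00 and 10.79 on glucose to 13.59 and 13.45 on xylose, 6.16-fold (2.62, SE 0.29, adjusted p = 1.04e-06). PsXyl3, the added xylulose kinase, moved the other way, from 9.48 and 9.82 to 8.25 and 8.43 (-1.31, SE 0.20, adjusted p = 2.8e-05). The native xylulokinase gene XKS1 was far lower than PsXyl3, at 1.76 and 2.12 on glucose and 2.52 and 2.58 on xylose (0.61, adjusted p = 0.0421), and its call was lost without glucose replicate A or either xylose library. TAL1, native and added copies together, rose by 1.32 (8.02 and 7.93 to 9.26 and 9.32, adjusted p = 3.56e-05). Both transgenes were examined after their values were seen. As with TDH3, CpXylA was low in Y128 on glucose without oxygen: its mean was 10.90 there, 12.65 in Y22-3 and 12.45 in Y127 on the same medium, and 14.29 in Y128 on glucose with oxygen.

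Of 11 pentose phosphate genes 6 rose and 2 fell. SOL3, the lactonase of the oxidative branch, rose from 5.91 and 5.99 to 7.92 and 7.88 (1.95, adjusted p = 3.85e-06), GND1, phosphogluconate dehydrogenase, rose by 1.38 and RPE1, the epimerase that links the pentose phosphates, by 1.01. The genes that fell were minor isozymes, TKL2 by 1.64 and NQM1 by 1.55, and both are known to be induced in stress. ZWF1, the entry to the oxidative branch, differed by -0.15 (adjusted p = 0.451), and the calls of the transketolase gene TKL1 and the isomerase gene RKI1 were lost in most of the fits with a library left out. Among 9 genes of aldose reductases and xylitol metabolism 2 rose, and GRE3 was at 6.12 and 6.33 on glucose and 6.20 and 6.46 on xylose. On glucose without oxygen, 6 of these 9 genes (66.7%) and 3 of the 11 pentose phosphate genes (27.3%) were more than 1 lower in Y128 than in both other strains. The share over all genes was 3.55%.

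The genes mutated in Y128 were still transcribed. HOG1 was between 5.28 and 5.38 in all 4 libraries, and IRA2 differed by -0.06 (adjusted p = 0.787) and by 0.14 in the opposite direction after centring. ISU1 fell from 6.70 and 6.82 to 5.85 and 5.91 (-0.88, adjusted p = 0.00554), as did its paralogue ISU2 by 0.86. In the HOG pathway 6 of 12 genes fell (50%, beside 26.9% of all genes) and none rose. After centring 3 of the 12 fell and 1 rose, where 1329 of all 5803 genes were lower and 1534 higher. SSK1, a response regulator upstream of Hog1, fell by 1.28 and STE11, a kinase kinase kinase, by 1.18, and these were the 2 called whichever library was left out. Ras and protein kinase A genes were near the background, with 1 of 16 higher and 3 lower: RAS1 rose by 1.11, while SDC25, a Ras exchange factor gene, fell by 1.59 and PDE1, a phosphodiesterase gene that lowers cyclic AMP, by 1.43.

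Genes of mitochondrial energy metabolism were higher on xylose although no oxygen was present. In the TCA cycle 14 of 17 genes rose and none fell (median 0.63), 8 of them whichever library was left out. IDH2, a subunit of isocitrate dehydrogenase, was at 6.36 and 6.31 on glucose and 7.57 and 7.70 on xylose (1.30, adjusted p = 3.18e-05), MDH1, mitochondrial malate dehydrogenase, rose by 1.19 and CIT1, citrate synthase, by 1.12. In the respiratory chain and ATP synthase 29 of 36 genes rose and 2 fell (median 0.89), and 22 of the rises were called whichever library was left out. ATP1, the alpha subunit of ATP synthase, went from 7.08 and 7.22 to 8.57 and 8.50 (1.38, SE 0.17, adjusted p = 2.65e-06). COX5B, the cytochrome oxidase subunit used at low oxygen, rose by 1.56 and its aerobic partner COX5A by 1.08. In the Y128 glucose libraries without oxygen, 12 of these 36 genes (33.3%, against 3.55% of all genes) lay more than 1 below both other strains, and the part of that in the difference was not tested. The exceptions were CYC1, cytochrome c, which fell by 1.32, and NDE1, the external NADH dehydrogenase, which fell by 1.21. HAP4, the activator that sets the level of respiratory genes, rose from 4.64 and 4.59 to 5.57 and 5.54 (0.94, adjusted p = 0.00317), the only rise among 14 regulators of respiration and oxygen response, of which 7 fell.

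Genes of the mitochondrial ribosome rose in the same way, 53 of 66 with none lower (median 0.80), and 28 of the rises were called whichever library was left out. MRPL6 was at 4.08 and 4.16 on glucose and at 5.68 and 5.61 on xylose (1.53, adjusted p = 9.83e-07), MRPL7 rose by 1.51 and MRPL25 by 1.44. The cytosolic ribosome was less certain. Of 123 genes 55 rose and 1 fell (median 0.68), with library medians of 9.05 and 8.56 on glucose and 9.38 and 9.51 on xylose. Only 2 of those rises were called whichever library was left out: leaving out glucose replicate A, glucose replicate B, xylose replicate A or xylose replicate B gave 67, 2, 15 and 7. Centring gave 107 rises and 1 fall. RPS26B was at 7.73 and 6.81 on glucose and 8.46 and 8.63 on xylose. RPL15B, the 1 member that fell, went from 4.78 and 4.68 to 3.25 and 3.48; reads of the A and B copies of such genes may have been shared. Ribosome biogenesis genes showed 4 of 51 higher and 2 lower, with a median of 0.35. None of those 6 calls held whichever library was left out, all 51 genes were higher in glucose replicate A than in replicate B, and centring gave 22 higher and 2 lower.

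**Figure D3:**
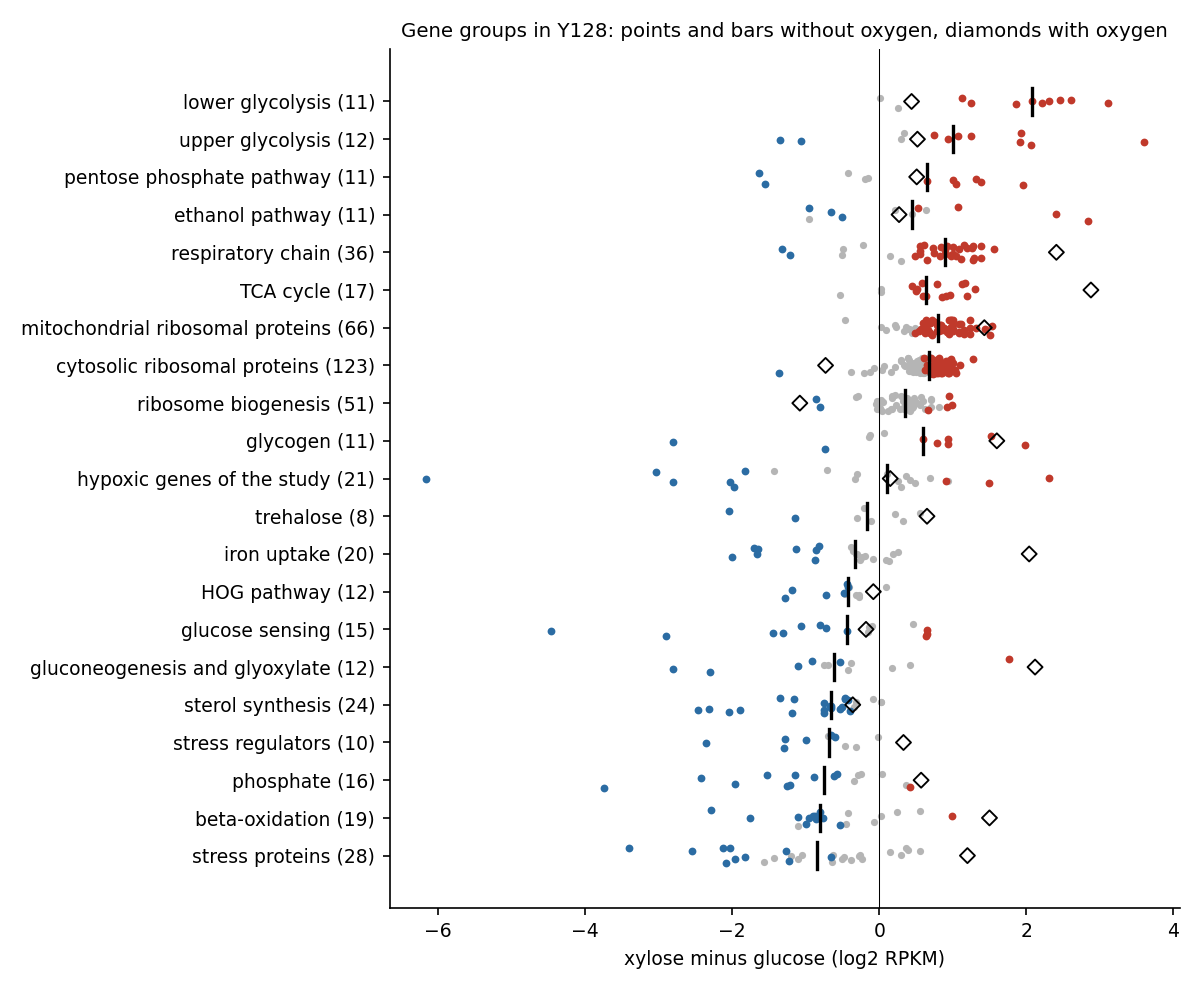
Each point is 1 gene of 21 gene groups, placed by its log2 difference, xylose minus glucose, in Y128 without oxygen; red points rose, blue points fell and grey points did not pass the test. The bar is the group's median without oxygen and the diamond its median with oxygen. Lower glycolysis lies highest with a median of 2.08, and groups such as beta-oxidation, stress proteins and iron uptake have bars below 0 and diamonds above 0.

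Sterol synthesis genes fell. Of 24 genes 19 fell and none rose (median -0.66), with 12 falls after centring and 8 called whichever library was left out. The 4 steepest falls were in steps whose enzymes use oxygen. ERG1, squalene epoxidase, was at 10.71 and 10.50 on glucose and at 8.06 and 8.23 on xylose, 5.50-fold lower (-2.46, SE 0.22, adjusted p = 5.17e-08). ERG5, a sterol desaturase, fell by 2.31, ERG11, the lanosterol demethylase, by 2.05, and ERG25, the C-4 methyl oxidase, by 1.90. The activators of this pathway fell as well, UPC2 from 8.12 and 8.14 to 6.69 and 6.86 (-1.36, adjusted p = 5.71e-06) and ECM22 by 1.06. HMG2, the reductase isozyme favoured at low oxygen, differed by 0.03 (adjusted p = 0.884), and HMG1 fell by 0.75.

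The hypoxic genes were expressed on both sugars but did not move together. Of the 21 hypoxic genes tested, 3 rose and 6 fell (median 0.11), and 7 rose after centring. The list was chosen by the study itself and is no independent evidence of a direction. TIR2, a cell wall mannoprotein gene, was at 11.50 and 11.78 on glucose and at 8.69 and 8.53 on xylose, 8.17-fold lower (adjusted p = 1.05e-07). TIR1 and TIR3, of the same family, moved the other way: TIR1 went from 10.41 and 10.49 to 11.93 and 11.97 (1.5, adjusted p = 0.00297) and TIR3 rose by 0.91. The seripauperin gene PAU20 was at 6.12 and 5.55 on glucose and at -1.44 and 0.78 on xylose, where it had 2 and 14 reads. PAU24 fell by 2.80, PAU23 by 2.03 and DAN4 by 1.97, while DAN1 was higher by 2.31 with a call that was lost without any 1 of the 4 libraries. ROX1, the repressor of hypoxic genes, was low on both sugars and fell by 2.89 (adjusted p = 8.56e-05), MOT3, its partner, fell by 1.87, and HEM13, a haem synthesis gene induced without oxygen, was at 11.73 and 11.74 on glucose and 11.89 and 12 on xylose.

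Among the 10 largest falls were PIR3, SED1, PAU12 and YLR194C, which encode proteins of the cell wall; no list of wall genes was tested. PIR3, a wall protein attached through its internal repeats, was at 7.17 and 7.95 on glucose and at 0.65 and 0.70 on xylose, 118-fold lower (-6.88, SE 0.38, adjusted p = 6.53e-11). SED1, a structural glycoprotein of the wall, was at 10.71 and 11.04 on glucose and at 5.22 and 4.58 on xylose, 62.8-fold lower (adjusted p = 1.09e-10). PAU12 fell 106-fold, from 11.06 and 11.02 to 4.33 and 4.30, and YLR194C fell 40.2-fold. PST1 and HSP150, surface proteins chosen after their values were seen because they were among the 20 most abundant transcripts on glucose, fell by 4.82 and 2.22. In all of these the 2 xylose libraries lay below both glucose libraries, a condition that the choice of the 10 largest falls had already set. HMS1, a transcription factor gene linked to filamentous growth, fell by 5.11. FLO11, the flocculin of filaments and biofilms, rose from 2.91 and 3.00 to 7.27 and 6.51 (3.94, SE 0.63, adjusted p = 6.53e-05).

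Beside FLO11 and the sugar genes, the 10 largest rises included MRK1, which encodes a kinase of the GSK-3 family, from 0.49 and 0.53 to 4.72 and 4.53 (17.4-fold, adjusted p = 2.66e-09). Another was YFR052C-A (3.46), a frame that overlaps HXK1, so its reads cannot be told apart from those of HXK1. The tenth was YDR134C (2.84), annotated as a pseudogene. Of the 10 largest falls, GTK30G00120 (-5.90) and GTK30N03910 (-5.13) carry only the identifiers of the strain's genome annotation. All 20 kept their direction and passed the test whichever of the 4 libraries was left out.

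Part of the stress genes were lower on xylose. Of 28 stress protein genes 10 fell and none rose (median -0.85), and after centring 8 fell and 3 rose. The share that fell, 35.7%, was above the 26.9% of all genes tested by less than in sterol synthesis (79.2%) or among phosphate genes (62.5%). HSP26, a small heat shock protein, was at 8.13 and 8.60 on glucose and at 5.07 and 4.84 on xylose, 10.7-fold lower (-3.41, adjusted p = 2.63e-05). The chaperone genes SSA4, HSP42 and HSP82 fell by 2.55, 2.13 and 1.82, all called whichever library was left out. HSP12, a membrane protein gene of the general stress response, varied more between duplicates than between sugars, at 5.27 and 7.01 on glucose and 5.83 and 4.35 on xylose. Of 10 stress regulators 6 fell, among them MSN2, an activator of the general stress response (-1.28, adjusted p = 3.57e-06), and XBP1, a repressor made in stress and quiescence (-2.36, adjusted p = 1.57e-05). Its relative MSN4 differed from MSN2 in this, with -0.01 (adjusted p = 0.969). The glucose level of this group was itself lower in Y128 than in the other strains. On glucose without oxygen, 16 of the 28 stress protein genes (57.1%) lay more than 1 below both Y22-3 and Y127, against 3.55% of all genes.

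Storage carbohydrate genes divided. Of 11 glycogen genes 6 rose and 2 fell. GSY1, a glycogen synthase, went from 4.0 and 4.59 to 6.30 and 6.24 (1.98, adjusted p = 0.000635) and GPH1, the phosphorylase, rose by 1.52, while SGA1, a glucoamylase of sporulating cells, fell by 2.80. These 3 were called whichever library was left out. Of 8 trehalose genes 2 fell (25%, beside 26.9% of all genes) and none rose. TSL1, a subunit of the synthase, fell by 2.05 and NTH1, the neutral trehalase, by 1.14. On glucose without oxygen, 6 of the 11 glycogen genes (54.5%) and 5 of the 8 trehalose genes (62.5%) lay more than 1 below both other strains in Y128. The share over all genes was 3.55%, and the part of these low levels in the sugar differences was not tested.

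Of 20 iron regulon genes 8 fell, none rose and 12 did not pass (median -0.33, and -0.13 after centring). The share that fell was 40% beside 26.9% of all genes, and all 8 were called whichever library was left out. TIS11, which degrades mRNAs of iron-using proteins, was at 5.54 and 5.42 on glucose and at 3.39 and 3.57 on xylose (-2.0, adjusted p = 1.04e-06), and HMX1, haem oxygenase, fell by 1.71 and FRE3, a siderophore reductase, by 1.66. The uptake genes FET3 and FTR1 differed by 0.25 and -0.39 and did not pass. Of 16 phosphate genes 10 fell and 1 rose. PHM8, a nucleotide phosphatase, went from 5.87 and 6.02 to 1.97 and 2.41, 13.5-fold lower (adjusted p = 1.05e-06), GIT1, a glycerophosphoinositol permease, fell by 2.42, and PHO81, the inhibitor that starts the phosphate response, by 1.15.

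Sulfur, purine and cell cycle genes were close to the background or to 0. Sulfur and methionine genes had 2 of 23 higher and 5 lower, with SAM2, an S-adenosylmethionine synthetase, falling by 0.99. Purine synthesis had 2 of 13 lower and none higher, and neither call held whichever library was left out. In the cell cycle list 1 of 12 genes fell, CLB5 by 0.56, a call that centring removed. Of 8 histone genes 2 rose (25%, beside 12.3% of all genes). These were HTA2 and HTB2, 1 of the gene pairs for histones H2A and H2B, by 2.03 and 2.46, while HTA1 and HTB1 differed by -0.23 and 0.09. Of 6 sporulation genes 2 fell (33.3%, beside 26.9% of all genes), with the meiotic kinase gene IME2 lower by 1.69. The sporulation median was -0.99, beside -0.19 over all genes, and 1 of the 6 averaged at least 10 RPKM.

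The effect of sugar depended on oxygen. The same contrast of Y128 with oxygen gave 1401 genes higher and 1071 lower. The test of the difference between these contrasts called 827 genes (14.3%) more positive without oxygen and 1743 (30.0%) more negative, 44.3% in all, and after centring 1619 and 1502. Leaving out glucose replicate B of the anaerobic group lowered the first count to 518. Of the 713 genes that rose without oxygen, 348 also rose with oxygen and 95 fell. Of the 1561 that fell without oxygen, 227 also fell with oxygen and 388 rose. With oxygen 1401 of all 5803 genes rose and 1071 fell, and the share that rose was nearly the same among those 1561 genes.

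HXT3 was lower on xylose in both settings (-7.20 without oxygen and -5.98 with it). HXT7, HXT6, HXK1 and SUC2 rose in both, by less without oxygen: HXK1 by 3.60 against 9.22 (difference -5.62, SE 0.34, adjusted p = 1.51e-10), HXT7 by 5.74 against 9.35 (adjusted p = 2.88e-07) and SUC2 by 3.76 against 5.50 (adjusted p = 0.00175). The mean level of HXK1 in Y128 was 0.69 on glucose and 9.92 on xylose with oxygen, 8.56 on glucose and 12.17 on xylose without it. Some glycolytic and fermentative genes had the opposite order, TDH3 with 3.11 against 0.39 (adjusted p = 5.69e-05) and ADH1 with 2.41 against 0.27 (adjusted p = 0.000881), but others did not: GLK1 rose by 1.91 against 4.64 (adjusted p = 1.22e-05). In lower glycolysis 7 of 11 genes were more positive without oxygen and 4 more negative, in upper glycolysis 5 and 5 of 12.

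The medians of several groups differed in sign between the settings. Cytosolic ribosomal protein genes had a median of 0.68 without oxygen and -0.73 with it, where none of 123 rose and 73 fell, and 111 of the 123 were more positive without oxygen. Ribosome biogenesis had medians of 0.35 and -1.08, with 45 of 51 genes more positive without oxygen. Few calls without oxygen held whichever library was left out, 2 of 55 cytosolic ribosomal rises and none in ribosome biogenesis. The iron regulon had -0.33 without oxygen (-0.13 after centring) and 2.04 with it, and 18 of 20 genes were more negative without oxygen. Beta-oxidation had -0.80 and 1.5, stress proteins -0.85 and 1.2, and gluconeogenesis -0.62 and 2.12. TCA cycle and respiratory chain genes rose in both settings with smaller medians without oxygen, 0.63 against 2.88 and 0.89 against 2.41, and 16 of 17 and 34 of 36 were more negative in the test. Among single genes, TMA10, a ribosome-associated protein gene, differed by 0.36 without oxygen and rose by 8.0 with it, and the acyl-CoA oxidase gene POX1 had -1.0 and 7.21. In the other direction TIR1 rose by 1.5 without oxygen and fell by 5.73 with it. PIR3, SED1, PST1 and NRG1 fell without oxygen and had differences of 0.74, 0.98, 1.45 and 0.62 with it.

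**Figure D4:**
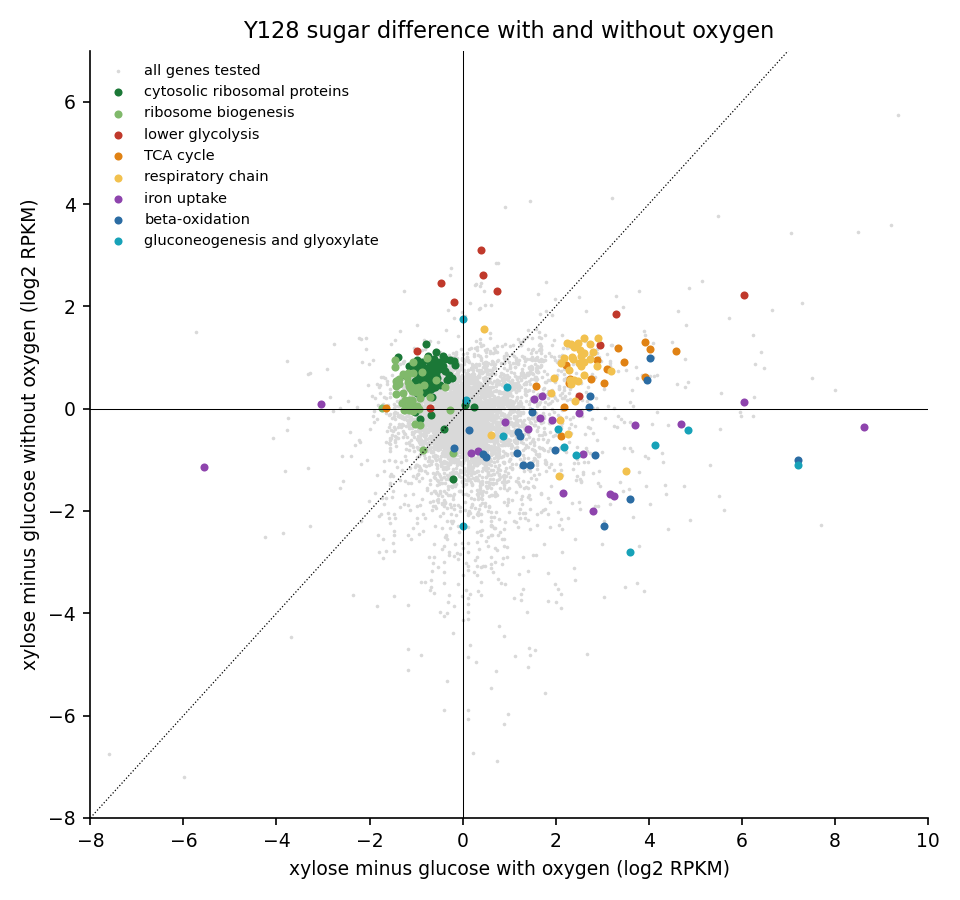
Each point is a gene of Y128, with its log2 difference, xylose minus glucose, with oxygen on the horizontal axis and without oxygen on the vertical axis; 8 gene groups are coloured and the dotted line marks equal differences. Most lower glycolysis and ribosomal protein genes lie above the line and most TCA cycle and respiratory chain genes below it.

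Y127 and Y22-3 did not grow on xylose without oxygen, so their contrasts compare growing cells on glucose with arrested cells on xylose, and strain and growth cannot be told apart. Against Y127, 670 genes (11.5%) were more positive in Y128 and 931 (16%) more negative, and after centring 1181 and 1096. Leaving out Y128 glucose replicate B gave 430 of the first, leaving out 1 of the Y127 glucose libraries gave 437, and leaving out Y127 xylose replicate B gave 552 of the second. Against Y22-3 the counts were 3257 (56.1%) and 1313 (22.6%), 78.8% of genes in all, and after centring 2467 and 2297. Both comparisons use the same Y128 libraries. The transporter genes divided. For 2 of them the difference between strains did not pass: HXT3 had -7.20 in Y128, -8.06 in Y127 and -7.57 in Y22-3, and HXT7 had 5.74, 6.4 and 5.17, with adjusted p of the differences between strains from 0.066 to 0.327. HXT6 rose by less in Y128 than in Y127 (3.43 against 5.12, adjusted p of the difference 0.00524). HXT4 had 1.91 in Y128, -2.27 in Y127 and -2.06 in Y22-3, and HXT2 had 0.72, -2.68 and -3.25, with adjusted p of the differences of 5.7e-05 or less. TDH3 rose in Y128 and by 2.45 in Y127 (adjusted p of the difference 0.28), but had -0.22 in Y22-3 (adjusted p of the difference 8.05e-07).

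Seripauperins were 4 of the 5 genes with the largest positive difference from Y127. PAU9 was at 11.39 and 11.45 on glucose and 10.17 and 11.02 on xylose in Y128, where it did not pass the test (-0.82, adjusted p = 0.26), while its mean in Y127 went from 11.65 to 0.76. PAU2, PAU5 and PAU21 had differences from -1.43 to -0.71 in Y128 and from -9.70 to -8.95 in Y127. In Y22-3 other hypoxic genes were far lower on xylose: DAN1 differed by -10.22, ANB1, a hypoxic translation factor gene, by -9.42 and TIR3 by -8.89, against 2.31, 0.93 and 0.91 in Y128. Over the 21 hypoxic genes the median was 0.11 in Y128, -2.75 in Y127 and -6.99 in Y22-3, and over the 24 sterol genes -0.66, -2.14 and -4.52.

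The genes with the largest negative difference from Y127 were lower on xylose in Y128, higher on xylose in Y127, or both. NRG1 fell by 5.46 in Y128 and had -0.11 in Y127 (adjusted p of the difference 5.11e-11), with mean levels of 8.06 and 2.60 in Y128 and 5.48 and 5.37 in Y127. SED1 had -5.97 and 0.22 (adjusted p of the difference 1.65e-08). FIT2, a cell wall mannoprotein gene for siderophore iron, differed by -0.30 in Y128 and by 7.08 in Y127 (adjusted p of the difference 5.11e-11), and CHA1, the serine and threonine deaminase gene, by -2.43 and 3.70. Against Y22-3 the 5 largest were the stationary phase genes SPG4 and SPG1, the stress genes GRE1 and DDR2, and PUT1, which encodes proline oxidase. These were higher on xylose in Y22-3 by 6.58, 6.81, 7.49, 5.60 and 4.25, and had differences from -3.21 (PUT1) to -0.64 (GRE1) in Y128.

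**Figure D5:**
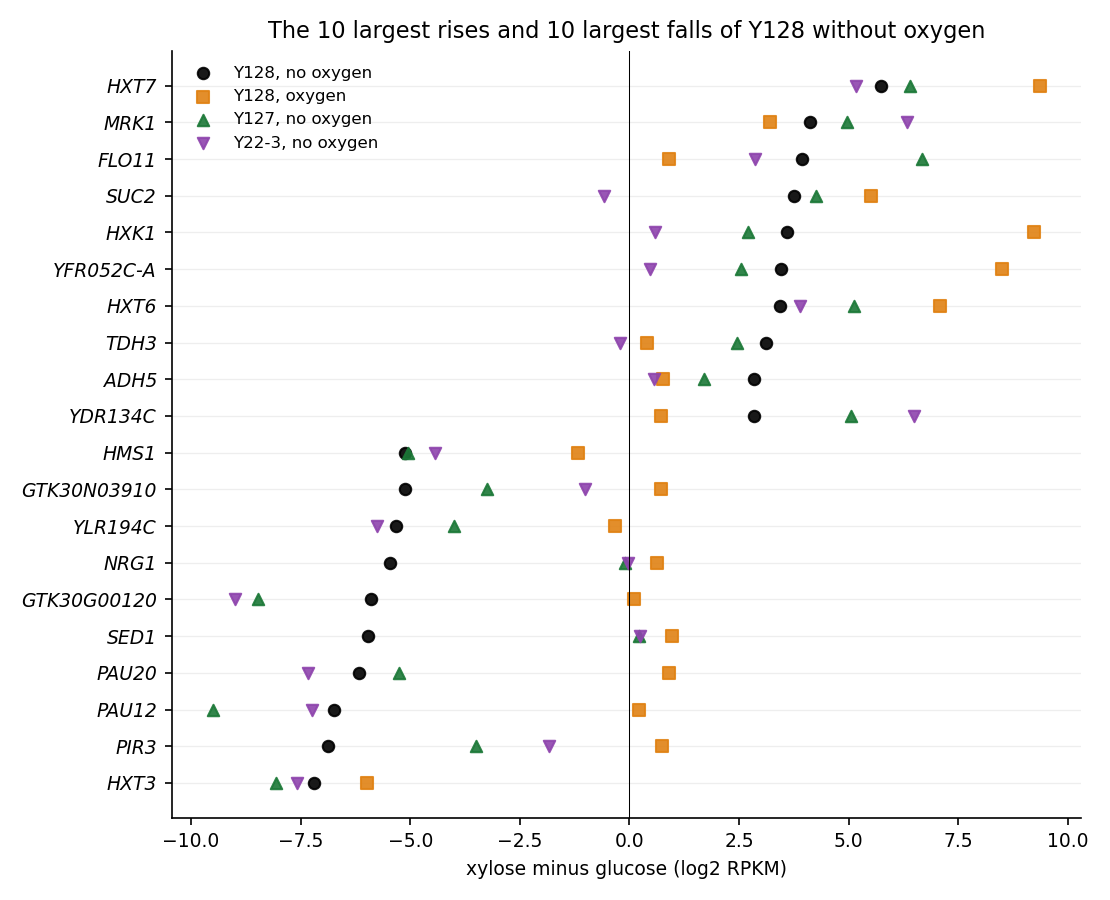
The 10 largest rises and 10 largest falls on xylose in Y128 without oxygen, each with its log2 difference, xylose minus glucose, in Y128 without oxygen, Y128 with oxygen, and Y127 and Y22-3 without oxygen. HXT3, HXT6 and HXT7 have the same sign in all 4 contrasts, while PIR3 (-6.88), SED1 (-5.97) and NRG1 (-5.46) fell in Y128 without oxygen and had positive differences in Y128 with oxygen.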

How the data were processed

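Libraries from total RNA depleted of ribosomal RNA were sequenced single end with a stranded kit. Submitters' processing notes name Trimmomatic 0.3.0, Bowtie2 2.2.2 and HTSeq 0.6.0; reads were mapped to the Y22-3 genome, and whether strand was used in counting is not given in the sources used here. The authors deposited 1 table of log2 RPKM for 6328 genes in 32 libraries. The deposited log2 RPKM values were used as they are. Library totals were recovered from the step of 1 read in the RPKM values, taking 1 read as added throughout before the logarithm; 78.6% to 80.3% of values below 200 reads were then within 0.05 of a whole number in the 4 libraries, too few for a count test. Totals ranged from 7.53 M to 24.1 M reads (M, 1000000).

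Groups came from the sample labels. A linear model with 12 group means was fitted to the 24 duplicated libraries in limma 3.58.1 (R 4.3.3; moderated with a variance trend, 12 residual degrees of freedom), for the genes whose RPKM averaged 1 or more in the compared libraries, with Benjamini-Hochberg adjustment and a threshold of 0.05. Differences between contrasts were tested as interactions. Counts were simulated around the mean levels of the Y128 glucose libraries without oxygen, with a spread set by hand and genes drawn independently. With 100 of 5449 genes changed 2-fold and 100 changed 4-fold, the main contrast recovered 88 and 100. It called 11 unchanged genes, and called 0 when nothing was changed. Shifts shared by many genes, as between the glucose duplicates, were not simulated, so these rates may not hold for the data. Named genes were the sugar genes and mutated genes, up to 3 members per direction of each gene list, the 10 largest differences per direction averaging 10 RPKM or more with groups that did not overlap, the 5 largest per direction of each interaction, and list members given as description. The genes, lists and tests were chosen with earlier results of these data known. Alternatives were another filter, pseudocounts of 0.1 and 1, centring, no variance trend, a replicate block, the compared libraries alone and each library left out. Python 3.11.15, pandas 2.3.3 and matplotlib 3.10.9 were used for summaries and plots. Duplicates came from different days, and p-values measure the spread between such cultures within groups, pooled over all 24 libraries of the 3 strains. Y128 is 1 evolved strain, and the spread between separately evolved strains was not measured. The single galactose library was not tested.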

Additional observations from a re-analysis of the deposited data

Results flagged for a closer look

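The test of the difference between contrasts singled out genes whose sugar difference in Y128 without oxygen was unlike that in another setting; the values here are differences between log2 differences. Against Y128 with oxygen, TIR1, a cell wall mannoprotein gene, was 7.23 more positive, ANB1 4.70, the phosphatase genes GPP1 and PHO3 4.04 and 4.0, and AAC3, the mitochondrial ADP/ATP carrier gene used without oxygen, 3.96. POX1 of beta-oxidation was more negative (-8.21), as were TMA10 (-7.64), PIR3 (-7.62), the NADPH oxidoreductase gene OYE3 (-7.59) and YMR315W-A (-7.46).

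Against Y127, the seripauperins PAU9, PAU21, PAU5 and PAU2 were more positive by 10.06, 8.64, 8.24 and 8.23, and PBI1 by 6.95. FIT2 (-7.38), SED1 (-6.19), CHA1 (-6.13), AZR1, which encodes a membrane transporter (-5.78), and NRG1 (-5.35) were more negative. AZR1 is weakly expressed elsewhere and was at 6.12 and 6.54 on glucose and 1.51 and 1.70 on xylose in Y128.

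Against Y22-3, DAN1 was more positive by 12.53, ANB1 by 10.35, TIR3 by 9.80, TIR1 by 9.76 and PAU2 by 9.0. SPG4 (-8.54), GRE1 (-8.13), SPG1 (-8.01), the proline oxidase gene PUT1 (-7.46) and DDR2 (-7.03) were more negative. Y127 and Y22-3 were not growing on xylose without oxygen, and strain and growth cannot be told apart in these comparisons.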

How the results depend on the processing

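Of 177 named genes, 119 kept their direction and their side of the threshold in all 13 settings tried. Over 2275 pairs of gene and setting, 2101 stayed as they were, 151 lost the call, 17 gained it and 6 reversed, none of these 6 a called gene: after centring MIG1 was 0.11 and IRA2 0.14, without glucose replicate B GRE1 was 0.04, and without xylose replicate B GRE3 was -0.02, IRA2 0.02 and FIT2 0.05. Over the fits with a library left out these genes ranged from -1.33 to 0.04 (GRE1), -0.02 to 0.23 (GRE3), -0.15 to 0.02 (IRA2) and -0.65 to 0.05 (FIT2). Centring raised the genes higher on xylose to 1534, those more positive without oxygen to 1619 and those more positive than in Y127 to 1181, and those more negative than in Y22-3 to 2297. Fitting the compared libraries alone gave 1136 genes higher on xylose and 1336 more positive without oxygen. Requiring a 2-fold difference left 216 higher and 729 lower. Leaving out 1 library gave between 385 and 569 genes higher on xylose and between 962 and 1101 lower. For the oxygen comparison it gave between 518 and 781 genes more positive, and for Y127 between 430 and 736 more positive (633 at most without a Y127 xylose or a Y128 library) and between 552 and 1193 more negative. Without 1 of the Y127 glucose libraries the count of more positive genes was 437. The causes were not tested. Letters were not taken to pair the duplicates: the correlation of same-lettered deviations was -0.021 between the 2 sugars and ran from -0.105 to 0.31 over the pairs of groups. With the replicate block 803 genes were higher and 1532 lower, and for the oxygen comparison 870 and 1717; the block raised the called rises of cytosolic ribosomal protein genes from 55 to 86, of ribosome biogenesis from 4 to 9 and of histones from 2 to 4. No paired analysis was possible for Y127 because its glucose libraries carry no letters that could be matched. Other filters, pseudocounts and the fit without a variance trend moved no count by more than 1.5 times. Depth limited weak genes: PAU20, for example, had 2 and 14 reads on xylose.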
